A study of Mus musculus with 39 samples.

Results

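Fgf21, Pdk4, Angptl4 and Creb3l3, 4 regulators of the liver's response to fasting, were followed through all 10 groups of a mouse liver study of perfluorooctanoic acid (PFOA). Each was taken by its gene symbol, and each had 1 probe with that symbol alone, so the 4 members stand for 4 of the 11591 genes tested. Adult male mice on a 129SV background, either lacking PPARα (PPARa-null) or wild type, were gavaged on 7 consecutive days. In each genotype 4 animals received 1 mg/kg and 4 received 3 mg/kg of the ammonium salt of PFOA, with 4 given deionized water alone. A second set of 4 received 50 mg/kg Wy14,643, a synthetic PPARα agonist, in 0.5% methylcellulose. It was set against 4 PPARa-null and 3 wild-type animals given methylcellulose. Liver RNA of each animal was hybridised to its own array, 39 in all. The labels mention no fasting, so "fasting" names what these genes are known for and not a condition of the study.

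PPARα is a nuclear receptor that fatty acids bind, and in the fasted liver it switches on fatty acid oxidation and ketone production. FGF21 is a hormone that the liver secretes in fasting and that acts through FGF receptors with the co-receptor β-Klotho. PDK4 is a kinase that phosphorylates and shuts off the pyruvate dehydrogenase complex, sparing glucose when fat is burned. ANGPTL4 is a secreted inhibitor of lipoprotein lipase, and CREB3L3 (CREBH) is a liver transcription factor anchored in the endoplasmic reticulum that is cut free on fasting. The genes of all 4 are described targets of PPARα in liver. Each treatment was given to both genotypes, so the comparison asks which of the 4 responses needs PPARα.

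RefSeq promoter windows, from 250 bases before to 50 after a transcription start on GRCm38.p6, were held for 3 of the 4 members. None was held for Angptl4, so those of Fgf21, Pdk4 and Creb3l3 are shown. These 3 were also the members that passed the test, at an adjusted p under 0.05, in wild-type livers at 3 mg/kg. Angptl4 was higher there by its group mean but did not pass. The Fgf21 window lay at chr7:45615441-45615740 and that of Pdk4 at chr6:5496229-5496528, both at the gene's annotated 5′ end. Creb3l3 had 2 windows, 1 at its annotated 5′ end, chr10:81098823-81099122, and 1 at a start 6281 bases inside the gene, chr10:81092542-81092841. All lay on the minus strand and are written 5′ to 3′. Capitals mark matches to the motifs searched on both strands.
Fgf21: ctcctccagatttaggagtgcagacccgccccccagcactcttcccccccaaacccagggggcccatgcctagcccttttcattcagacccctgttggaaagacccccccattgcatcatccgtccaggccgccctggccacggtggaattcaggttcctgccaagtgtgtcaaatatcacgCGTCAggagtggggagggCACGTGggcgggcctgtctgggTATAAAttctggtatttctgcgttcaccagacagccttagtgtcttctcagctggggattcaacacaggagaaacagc
Pdk4: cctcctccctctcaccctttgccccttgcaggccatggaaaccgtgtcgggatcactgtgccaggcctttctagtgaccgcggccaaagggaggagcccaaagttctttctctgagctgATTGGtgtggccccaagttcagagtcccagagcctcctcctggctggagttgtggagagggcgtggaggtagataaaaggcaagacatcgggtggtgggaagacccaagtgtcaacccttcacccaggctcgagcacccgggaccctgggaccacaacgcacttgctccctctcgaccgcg
Creb3l3, 5′ end: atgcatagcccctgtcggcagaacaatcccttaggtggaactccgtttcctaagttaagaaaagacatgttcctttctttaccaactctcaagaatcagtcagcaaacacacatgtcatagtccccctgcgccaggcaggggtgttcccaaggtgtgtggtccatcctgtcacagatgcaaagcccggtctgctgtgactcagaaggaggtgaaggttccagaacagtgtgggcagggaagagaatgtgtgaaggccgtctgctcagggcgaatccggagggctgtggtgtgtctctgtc
Creb3l3, start inside the gene: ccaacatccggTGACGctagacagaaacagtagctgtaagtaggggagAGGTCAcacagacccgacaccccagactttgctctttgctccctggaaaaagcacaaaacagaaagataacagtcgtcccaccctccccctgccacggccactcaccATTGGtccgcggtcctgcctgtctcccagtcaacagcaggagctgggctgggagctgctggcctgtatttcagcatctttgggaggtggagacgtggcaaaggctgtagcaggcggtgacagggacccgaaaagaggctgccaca

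The Fgf21 window held the E-box CACGTG, which 7.15% of the 32851 RefSeq mouse windows hold, and the TATA box TATAAA, which 13.6% hold. It also held TGACG, the short form of the cAMP response element, on the opposite strand, as 20.8% of windows do on either strand. The Creb3l3 window at the gene's 5′ end held none of the motifs, while the one inside the gene held AGGTCA, the half-site that PPARα and other nuclear receptors read, found in 16.3% of windows. The inside window also held TGACG and, on the opposite strand, the CCAAT box, the motif matched in the Pdk4 window and in 37.4% of all windows. The paired half-site AGGTCANAGGTCA, held by 0.0396% of windows, TGACGTCA, held by 1.79%, and the FoxO motif TGTTTAC, held by 3.65%, had no match in the members' windows. TGACG lies within TGACGTCA, and AGGTCA within the paired half-site.

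Values are the deposited log2 signals, taken as base 2 from their range, and equal quantiles on every array. A step of 1 is a doubling of signal if that base holds. Signals of different probes cannot be set against each other as levels. Differences are group means with their standard error (SE) from limma, fitted on 25295 probes over all 39 arrays, and "changed" means a Benjamini-Hochberg adjusted p under 0.05 over all those probes. The p-values measure the spread between these animals. In whole liver, fewer cells of a type and less RNA per cell cannot be told apart.

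On the labels, 1 array stood apart. The array labelled wild type, 1 mg/kg PFOA, replicate 3 had an Fgf21 signal of 7.04, against 12.01 to 12.73 on the other 3 arrays of its group. Cox6b2, which separated the genotypes on every other array, was at 9.06 there, within the 6.91 to 10.05 of the 20 PPARa-null arrays and below the 13.29 to 17.56 of the other 18 wild-type arrays. Ehhadh, a peroxisomal β-oxidation enzyme and PPARα target, was at 15.94 there and at 20.01 to 20.31 on the other 3. That array therefore goes against its label, and results that rest on it are given with and without it. The Ppara probe overlapped between genotypes, at 15.00 to 16.29 on PPARa-null and 15.62 to 16.84 on the other 18 wild-type arrays, and its place relative to the deleted part is not known here. Hepatocyte markers (5 tested) averaged 20.20 to 20.65 across the 10 groups. A group of 178 probes separated the arrays into sets of 16 and 23 that the labels do not record. The sets partly followed the replicate numbers. All replicate 2 arrays lay in the larger set, as did all replicate 3 arrays but that of PPARa-null on water. Groups were split unevenly: all wild-type Wy14,643 arrays lay in the larger set, and of PPARa-null on water only replicate 2 did. Results within each set are given in the closing section.

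**Figure D1:**
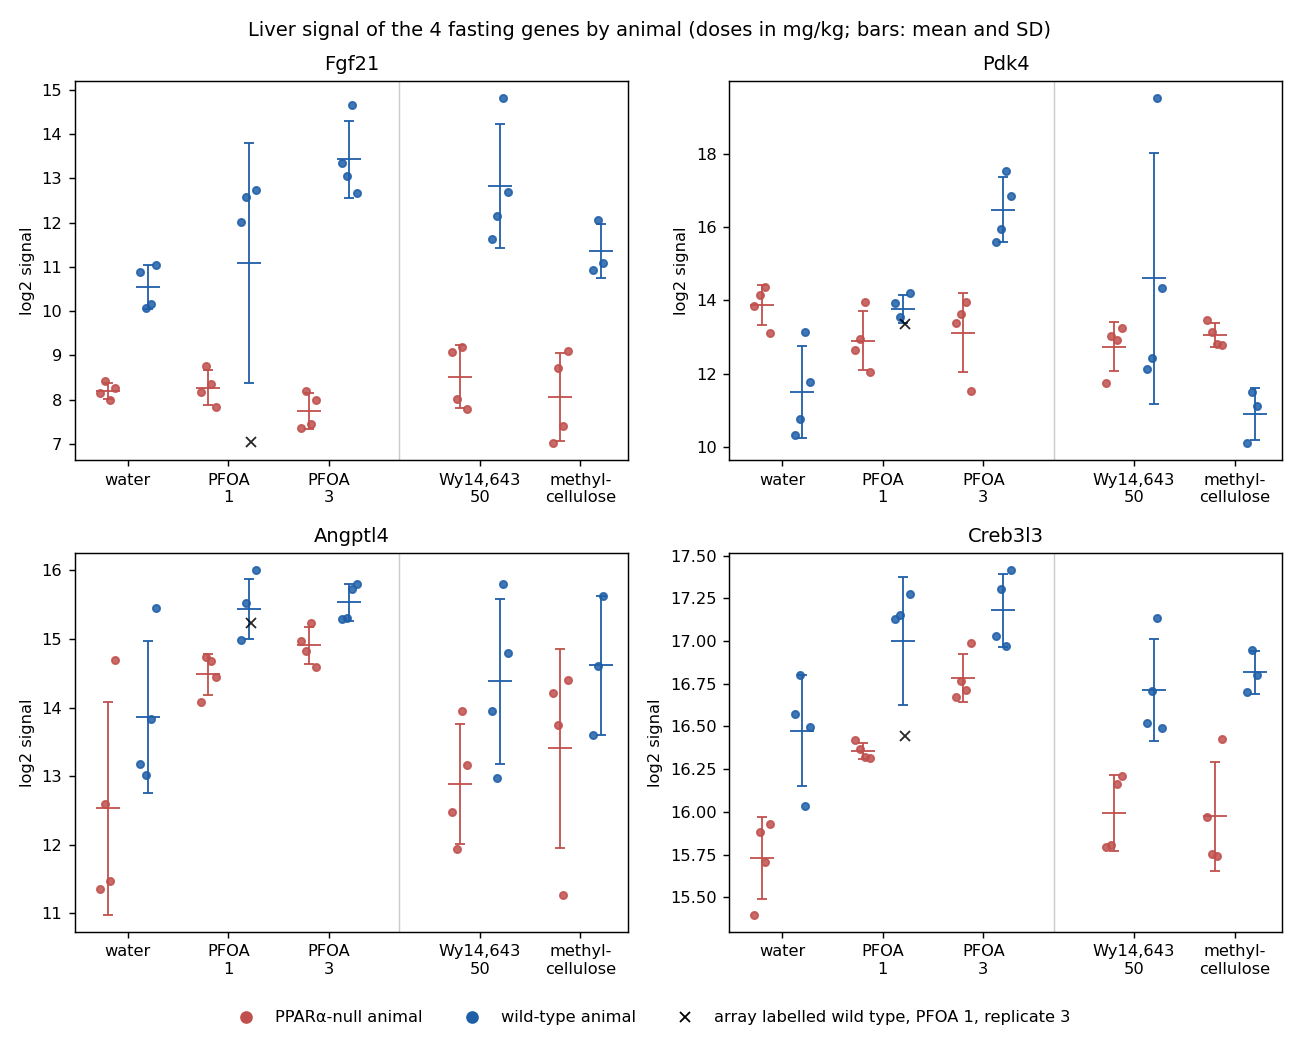
Log2 signal of each member (y axis, 1 panel per gene) in every animal, by treatment (x axis), with PPARa-null animals in red to the left and wild-type animals in blue to the right; horizontal bars are group means and whiskers SD, and the cross is the array that goes against its label, which is included in its group's mean. Fgf21 sat between 7.03 and 9.20 in all 20 PPARa-null animals and Pdk4 reached 19.51 in 1 wild-type animal given Wy14,643.

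The hormone gene Fgf21 was lower in every PPARa-null liver than on all wild-type arrays but the one that goes against its label, and higher in wild-type livers given 3 mg/kg PFOA than in those given water. The 20 PPARa-null arrays ran from 7.03 to 9.20 with a median of 8.16, and the 18 wild-type arrays other than the one that goes against its label ran from 10.06 to 14.81 with a median of 12.10. The genotypes therefore did not overlap under any treatment once that array was set aside. PPARa-null group means of Fgf21, 7.75 to 8.52, lay below the same groups' mean signal of genes silent in liver, 8.77 to 8.96. Those were 583 probes for sensory receptor and keratin-associated protein genes. Whether Fgf21 was above background on the PPARa-null arrays, and so whether a change there could be seen, was not tested.

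In PPARa-null livers Fgf21 read 8.15, 8.42, 7.98 and 8.25 on water, 8.16, 8.76, 8.34 and 7.83 at 1 mg/kg, and 7.37, 8.19, 7.44 and 7.99 at 3 mg/kg. The wild-type readings were 10.87, 10.06, 10.16 and 11.05 on water, 12.01, 12.58, 7.04 and 12.73 at 1 mg/kg, and 13.35, 13.04, 14.65 and 12.66 at 3 mg/kg. All 4 wild-type animals at 3 mg/kg lay above all 4 on water, while the PPARa-null groups overlapped. The wild-type mean was 13.43 ± 0.86 at 3 mg/kg and 10.54 ± 0.50 on water (SD, n = 4 each), a difference of 2.89 ± 0.77 (SE) on the log2 scale, or 7.41-fold, with adjusted p = 0.0208 by limma and 0.000342 without the array that goes against its label. The call was lost without wild-type water replicate 2 or 3 or without PFOA replicate 3, with limma adjusted p of at most 0.0997, and within either array set (limma adjusted p = 0.059 and 0.12). The PPARa-null difference at 3 mg/kg was -0.45 ± 0.77 (adjusted p = 0.923 by limma).

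The PPARa-null response of Fgf21 to 3 mg/kg minus the wild-type response was -3.34 ± 1.09 (limma adjusted p = 0.213). Without the array that goes against its label the estimate stayed at -3.34 with an SE of 0.72, and it passed the threshold (limma adjusted p = 0.0145). At 1 mg/kg the wild-type difference from water was 0.56 ± 0.77 with that array and 1.91 ± 0.55 without it (limma adjusted p = 0.843 and 0.102), where the other 3 animals averaged 12.44 ± 0.38 (SD, n = 3). The gap between the doses in wild type was 2.33 ± 0.77 with that array and 0.98 ± 0.55 without it, and neither passed the test.

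With Wy14,643, Fgf21 read 9.08, 8.01, 9.20 and 7.79 in PPARa-null livers, against 7.03, 8.70, 7.39 and 9.09 with methylcellulose. The wild-type readings were 11.63, 12.15, 14.81 and 12.70 with Wy14,643, against 10.94, 12.05 and 11.08 with methylcellulose. The wild-type groups overlapped, since the 12.05 of 1 methylcellulose animal exceeded the lowest Wy14,643 value, and the difference of 1.47 ± 0.83 did not pass (limma adjusted p = 0.323). Its size fell to 0.81 when replicate 3, the animal at 14.81, was left out. In the vehicle groups PPARa-null minus wild type was -2.33 ± 0.77 with water and -3.30 ± 0.83 with methylcellulose, which missed the threshold (limma adjusted p = 0.369 and 0.0919). Without the array that goes against its label the same differences had SEs of 0.51 and 0.55 and passed (limma adjusted p = 0.0318 and 0.00117).

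Pdk4, the pyruvate dehydrogenase kinase, had the largest difference of the 4 members at 3 mg/kg in wild type, and it was the member called in both wild-type PFOA and Wy14,643 comparisons. In PPARa-null livers it read 13.85, 14.15, 14.38 and 13.11 on water, 12.65, 12.94, 13.96 and 12.06 at 1 mg/kg, and 13.37, 13.64, 13.95 and 11.53 at 3 mg/kg. Wild-type livers gave 10.34, 10.77, 13.14 and 11.77 on water, 13.92, 13.55, 13.36 and 14.21 at 1 mg/kg, and 15.58, 15.95, 17.52 and 16.84 at 3 mg/kg. The 3 wild-type dose groups did not overlap with one another, and the 3 PPARa-null groups did.

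The wild-type mean of Pdk4 was 16.47 ± 0.88 at 3 mg/kg and 11.50 ± 1.24 on water (SD, n = 4 each), a difference of 4.97 ± 0.91 (SE), or 31.3-fold, with adjusted p = 0.000579 by limma, a call lost within the larger array set (limma adjusted p = 0.0931). At 1 mg/kg the difference was 2.25 ± 0.91, and between the doses 2.71 ± 0.91, and both missed the threshold (limma adjusted p = 0.358 and 0.386). In PPARa-null livers the difference from water was -0.75 ± 0.91 at 3 mg/kg and -0.97 ± 0.91 at 1 mg/kg, neither of which passed. The PPARa-null response to 3 mg/kg minus the wild-type response was -5.72 ± 1.28 (limma adjusted p = 0.0353), so the genotypes differed in it. That call held in 6 of the 17 fits that left out 1 array, with limma adjusted p between 0.0236 and 0.104 and the estimate between -6.26 and -5.19. It was lost without replicate 1, 2 or 3 of PPARa-null on water, or 1 or 4 of PPARa-null at 3 mg/kg. The same held without replicate 1, 2 or 4 of wild type on water, or 2, 3 or 4 of wild type at 3 mg/kg. The call was also lost within the smaller array set (limma adjusted p = 0.0829). With each array's mean signal of sensory receptor and keratin-associated protein genes, silent in liver, as a covariate it was lost too (limma adjusted p = 0.14). Within the larger set, with 1 PPARa-null water array, the estimate was -5.14.

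With Wy14,643, Pdk4 read 11.76, 13.03, 12.92 and 13.24 in PPARa-null livers, against 13.47, 13.15, 12.82 and 12.79 with methylcellulose. Wild-type livers gave 12.13, 12.44, 19.51 and 14.33 with Wy14,643, against 10.13, 11.50 and 11.11 with methylcellulose. All 4 wild-type Wy14,643 animals lay above the 3 methylcellulose animals, and replicate 3 lay 6.54 above the mean of the other 3. The difference was 3.69 ± 0.98 (SE), or 12.9-fold, with adjusted p = 0.0204 by limma. Leaving that animal out reduced it to 2.05, and the call was then lost (limma adjusted p = 0.0761). The call was also lost without replicate 1 or 3 of the wild-type methylcellulose group (limma adjusted p = 0.0997 and 0.0568). The 0.0997 was the highest of the 8 fits that each left out 1 array. When only the groups compared were fitted, or within the larger array set, the call was lost too (limma adjusted p = 0.325 and 0.251). The PPARa-null response to Wy14,643 minus the wild-type response was -4.01 ± 1.33 (limma adjusted p = 0.124).

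Of the vehicle groups, PPARa-null livers had the higher Pdk4 signal, by 2.37 ± 0.91 with water and 2.15 ± 0.98 with methylcellulose, opposite in sign to the other 3 members. Neither difference passed (limma adjusted p = 0.407 and 0.363). The methylcellulose groups did not overlap, and with water the lowest PPARa-null value, 13.11, lay just under the highest wild-type value, 13.14. On the PPARa-null arrays as a whole Pdk4 stayed between 11.53 and 14.38, whereas wild-type arrays spanned 10.13 to 19.51.

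Angptl4, the lipoprotein lipase inhibitor, was higher with PFOA than with water in both genotypes by its group means, but no difference passed the test across all probes. In PPARa-null livers it read 11.36, 12.59, 11.47 and 14.70 on water, 14.08, 14.74, 14.68 and 14.45 at 1 mg/kg, and 14.97, 14.83, 15.23 and 14.59 at 3 mg/kg. The wild-type values were 13.18, 13.01, 13.83 and 15.44 on water, 14.99, 15.52, 15.23 and 16.00 at 1 mg/kg, and 15.28, 15.31, 15.73 and 15.80 at 3 mg/kg. In each genotype 1 water animal, replicate 4, lay far above the other 3 and inside the range of the dosed animals, so the groups overlapped.

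At 3 mg/kg the Angptl4 difference from water was 2.38 ± 0.66 in PPARa-null livers and 1.67 ± 0.66 in wild-type livers (limma adjusted p = 0.159 and 0.148). At 1 mg/kg it was 1.96 ± 0.66 in PPARa-null livers and 1.57 ± 0.66 in wild-type livers, and neither passed. Leaving out the PPARa-null water replicate 4 gave 3.10 at 3 mg/kg, which passed (limma adjusted p = 0.0223). Leaving out the wild-type water replicate 4 gave 2.19, which did not (limma adjusted p = 0.0663). The PPARa-null response to 3 mg/kg minus the wild-type response was 0.71, with a 95% interval from -1.20 to 2.62.

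The spread of Angptl4 between animals was narrower in the PFOA groups than on water. Its SD was 0.30 at 1 mg/kg and 0.27 at 3 mg/kg in PPARa-null livers, against 1.55 on water. In wild-type livers the SD was 0.44 at 1 mg/kg and 0.27 at 3 mg/kg, against 1.11 on water. The difference in spread was not tested. The water SDs include replicate 4 of each genotype, at 14.70 in PPARa-null and 15.44 in wild type. The other wild-type water animals ran from 13.01 to 13.83, no wider than the 14.99 to 16.00 at 1 mg/kg. In PPARa-null the other water animals ran from 11.36 to 12.59, against 14.08 to 14.74 at 1 mg/kg. With Wy14,643, Angptl4 read 12.48, 11.93, 13.95 and 13.17 in PPARa-null livers, against 14.22, 13.75, 11.27 and 14.40 with methylcellulose. The wild-type values were 13.95, 12.97, 15.80 and 14.80 with Wy14,643, against 13.60, 14.61 and 15.63 with methylcellulose. Both pairs overlapped, and the differences were -0.53 ± 0.66 in PPARa-null and -0.23 ± 0.71 in wild-type livers.

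Creb3l3, the membrane-bound transcription factor, was the member that changed in PPARa-null livers, and its SD within groups was small, at 0.05 to 0.38. In PPARa-null livers it read 15.40, 15.88, 15.70 and 15.93 on water, 16.42, 16.37, 16.32 and 16.32 at 1 mg/kg, and 16.67, 16.76, 16.71 and 16.99 at 3 mg/kg. Its wild-type signal was 16.57, 16.80, 16.03 and 16.49 on water, 17.13, 17.15, 16.44 and 17.28 at 1 mg/kg, and 17.03, 17.30, 16.97 and 17.41 at 3 mg/kg. The 3 PPARa-null dose groups followed the dose with no overlap, while in wild type only the water and 3 mg/kg groups were separate. Without the array that goes against its label the wild-type 1 mg/kg group, then 17.13 to 17.28, also lay above the water group.

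At 3 mg/kg Creb3l3 averaged 16.78 ± 0.14 in PPARa-null livers, against 15.73 ± 0.24 on water (SD, n = 4 each). That was a difference of 1.06 ± 0.19 (SE), or 2.08-fold (limma adjusted p = 0.00371). In wild-type livers it averaged 17.18 ± 0.21 at 3 mg/kg, against 16.48 ± 0.32 on water (SD, n = 4 each), a difference of 0.70 ± 0.19 (SE), or 1.63-fold (limma adjusted p = 0.0209). The PPARa-null response minus the wild-type response was 0.35, with a 95% interval from -0.19 to 0.89 (limma adjusted p = 0.652). At 1 mg/kg the difference was 0.63 ± 0.19 in PPARa-null livers and 0.52 ± 0.19 in wild-type livers. The wild-type difference was 0.71 ± 0.19 without the array that goes against its label, and none of the 3 values passed. The wild-type call at 3 mg/kg was lost without wild-type water replicate 3 or without PFOA replicate 2 or 4. The PPARa-null call held in all 9 fits that left out 1 array. Both calls were lost when only the groups compared were fitted (limma adjusted p = 0.153 in PPARa-null and 0.201 in wild type). They were also lost within the smaller array set (limma adjusted p = 0.179 in PPARa-null and 0.321 in wild type). Within the larger set the wild-type call was lost (limma adjusted p = 0.213). The PPARa-null difference was 0.85 there, with 1 water array, which cannot decide whether the call holds.

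With Wy14,643, Creb3l3 read 15.80, 15.80, 16.16 and 16.21 in PPARa-null livers, against 15.97, 15.75, 15.74 and 16.43 with methylcellulose. Its wild-type signal was 16.52, 16.71, 17.14 and 16.49 with Wy14,643, against 16.70, 16.95 and 16.80 with methylcellulose. Both pairs overlapped, and the differences were 0.02 ± 0.19 in PPARa-null and -0.10 ± 0.20 in wild-type livers, with a 95% interval from -0.52 to 0.31 in wild type. In wild type the response to 3 mg/kg PFOA minus the response to Wy14,643 was 0.81 ± 0.28, which did not pass (limma adjusted p = 0.247). PPARa-null minus wild type was -0.75 ± 0.19 with water and -0.84 ± 0.20 with methylcellulose, with no overlap of the groups in either vehicle. These differences missed the threshold (limma adjusted p = 0.145 and 0.07), and without the array that goes against its label the methylcellulose difference passed (limma adjusted p = 0.0304), as it did without PPARa-null methylcellulose replicate 4.

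**Figure D2:**
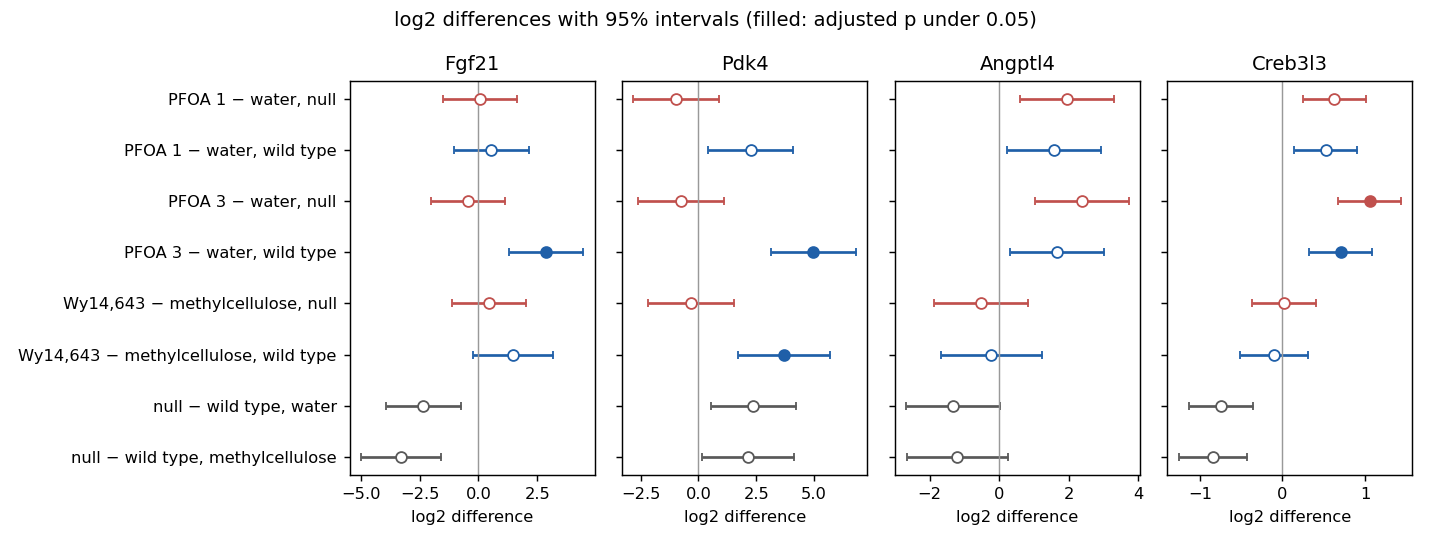
Differences in log2 signal (x axis) for the 4 members, 1 panel each, in 8 comparisons (rows), with 95% intervals from limma; filled points passed at an adjusted p under 0.05, red rows are PPARa-null, blue rows wild type and grey rows PPARa-null minus wild type. At 3 mg/kg PFOA, Fgf21, Pdk4 and Creb3l3 passed in wild type (2.89, 4.97 and 0.70) and Creb3l3 in PPARa-null livers (1.06).

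By comparison, 3 of the 4 members changed with 3 mg/kg PFOA in wild type, and all 3 were higher. Of all tested probes 5.82% changed there and 3.37% changed and were higher. In PPARa-null livers 1 of the 4, Creb3l3, changed at 3 mg/kg and was higher, against 0.3% of all probes changed and 0.261% higher. Wy14,643 in wild type changed 1 of the 4, Pdk4, which was higher, against 6.1% of all probes changed and 2.8% higher. At 1 mg/kg no member changed in either genotype, where 0.273% of all probes did in wild type and 0.0119% in PPARa-null livers. The wild-type share stands for 69 probes, which became 249 without the array that goes against its label. With Wy14,643 in PPARa-null livers limma called 0 of 25295 probes (0%), 691 had an unadjusted p under 0.05, and the highest count under any alternative was 1. Of the genotype differences in response, the one for Pdk4 at 3 mg/kg passed, where 0.415% of all probes did. None passed for Wy14,643, where 1.24% of all probes did, or at 1 mg/kg, where 0% did (0 by limma, 1274 at an unadjusted p under 0.05 and at most 1 under the alternatives and up to 41 with 1 array left out). No member passed between genotypes with water, where 0.127% of all probes did, or with methylcellulose, where 0.186% did. Between 3 and 1 mg/kg no member passed, where 0.0277% of all probes did in wild type and 0.00791% in PPARa-null livers. In wild type that was 7 probes, against 4 with the replicate block and 2 without the array that goes against its label. The wild-type response to 3 mg/kg minus that to Wy14,643 passed for no member, and for 0.0119% of all probes. These comparisons share their vehicle animals.

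Ordered by group mean, the 4 members were all highest in wild-type livers at 3 mg/kg PFOA, but without the array that goes against its label Creb3l3 averaged 17.18 there and 17.19 at 1 mg/kg. For Fgf21 the 5 wild-type groups took the first 5 places and the gap between wild type on water and the highest PPARa-null group, that given Wy14,643, was 2.01 with no overlap. All other neighbours in the order of Fgf21 overlapped, and without the array that goes against its label the wild-type 1 mg/kg group, at 12.44, moved above wild type with methylcellulose, at 11.36. For Pdk4 the wild-type vehicle groups were the lowest, under all 5 PPARa-null groups, and all neighbours overlapped. For Angptl4 all neighbours overlapped too, with PPARa-null livers on water the lowest. For Creb3l3 only PPARa-null at 1 mg/kg and PPARa-null with Wy14,643 were separate neighbours, 0.36 apart. Between vehicles, methylcellulose minus water gave differences from -0.81 to 0.88 over the 4 members and both genotypes. None passed, where 0% of all probes did in either genotype by limma (2191 at an unadjusted p under 0.05 in wild type and 2931 in PPARa-null livers, and at most 8 under any alternative).

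Within groups, the members did not move in step to a degree that passed the test. Over the 39 arrays, after each group's mean was taken out, Pearson's r over the 6 pairs ran from 0.17 for Pdk4 with Creb3l3 to 0.54 for Fgf21 with Creb3l3. Spearman's rho ran from 0.076 to 0.41. Permuting animals within groups gave adjusted p from 0.0574 to 0.462 for r and from 0.0963 to 0.670 for rho. Without the 2 arrays farthest from the median in the first-named gene of each pair, r ran from -0.16 for Pdk4 with Creb3l3 to 0.33 for Angptl4 with Creb3l3.

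The Wy14,643 wild-type replicate 3 was the highest of its group in all 4 members, at 14.81 for Fgf21, 19.51 for Pdk4, 15.80 for Angptl4 and 17.14 for Creb3l3. The other 3 animals of the group reached at most 12.70, 14.33, 14.80 and 16.71 for these genes. Of 79 other genes on the lists below, 24 were above all 3 other animals on that array and 25 below, or 30.4% and 31.6%, against 25.8% and 25.6% over the 12029 tested probes with 1 symbol. Among those above were Igfbp1, a secreted fasting-responsive protein, at 17.16 against at most 15.80, and Plin2, a lipid droplet coat protein, at 18.29 against at most 16.38. Among those below was Pck1, the gluconeogenic PEPCK, at 17.07 against at least 19.43. By list, the PPARα targets listed for comparison were all above except Fabp1, which lay inside the range of the other 3 animals. The gluconeogenic and other fasting genes went both ways. Igfbp1, Plin2, Pck1 and this split by list were chosen after their values were seen.

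Around Fgf21, its receptors and co-receptors mostly did not pass the test. Of 6 tested at 3 mg/kg in wild type, Fgfr4, the main FGF receptor of hepatocytes, fell by 0.63 ± 0.18 (limma adjusted p = 0.0289) and none rose, with a median of -0.35 against -0.02 over all probes. Fgfr3, another FGF receptor, fell by 1.86 ± 0.58 with Wy14,643 in wild type (limma adjusted p = 0.0487). It read 7.20 on replicate 3 of that group and 7.91 to 9.57 on its other arrays. The mean signal of the genes silent in liver was 8.92 in that group, and whether Fgfr3 was above background was not tested. In PPARa-null livers none of the 6 changed at 3 mg/kg, where 0.3% of all probes did. Around Pdk4, 13 genes of the pyruvate dehydrogenase complex and its other kinases, phosphatases and carrier were listed and 8 tested. These were Pdk1, Pdk2, Pdk3, Pdha1, Pdhb, Dld, Pdhx and Pdpr, so no carrier gene was tested and, of the phosphatases, only the regulatory subunit Pdpr. None of the 8 changed in wild type at 3 mg/kg or with Wy14,643, where 5.82% and 6.1% of all probes did.

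Around Angptl4, 1 of 7 tested lipases and lipase regulators rose at 3 mg/kg in wild type: Vldlr, a lipoprotein receptor, by 2.01 ± 0.36 (limma adjusted p = 0.000414). Vldlr also rose with Wy14,643 in wild type, by 1.84 ± 0.38, and Angptl6, another angiopoietin-like protein, fell by 1.04 ± 0.18. Around Creb3l3, 11 genes of its family, its processing proteases and its described targets were tested. At 3 mg/kg in wild type Cidec, a lipid droplet protein, rose by 3.29 ± 0.51 and Apcs, the acute-phase protein serum amyloid P, fell by 1.22 ± 0.31. Cidec rose with Wy14,643 in wild type too, by 2.20 ± 0.55, and Apoa4, an apolipoprotein and described CREB3L3 target, fell by 2.15 ± 0.30. On replicate 3 of that group Cidec read 12.84, against 9.13 to 9.93 on its other arrays, while Apoa4 lay inside their range. In PPARa-null livers at 3 mg/kg none of the 11 changed, where 0.3% of all probes did.

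Of 20 tested transcription regulators of fasting, 1 rose and 3 fell at 3 mg/kg in wild type. Lpin2, a phosphatidate phosphatase counted in that list, rose by 1.42 ± 0.40, and Ppargc1a, the coactivator PGC-1α, fell by 1.11 ± 0.32 (limma adjusted p = 0.0313 and 0.0341). Of 12 gluconeogenic and other fasting genes only Got1, an aspartate aminotransferase, changed at that dose in wild type, falling by 1.49 ± 0.36. With Wy14,643 in wild type 4 of the 12 fell, among them Pck1 by 1.37 ± 0.42 and Fbp1, a gluconeogenic phosphatase, by 0.91 ± 0.17. Pck1 read 17.07 on replicate 3 of that group, against 19.43 to 19.94 on its other arrays, while Fbp1 on replicate 3 lay inside their range. Differences of listed genes without replicate 3 were not examined. Of 7 tested genes of ketogenesis and the carnitine shuttle, 4 rose at 3 mg/kg in wild type, namely Cpt2, Slc25a20, Acadl and Acadvl, by 0.85 to 1.73. Acadl, a mitochondrial acyl-CoA dehydrogenase, also rose in PPARa-null livers, by 1.32 ± 0.26 (limma adjusted p = 0.00944).

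Of 10 tested PPARα targets listed for comparison, 9 rose at 3 mg/kg in wild type with a list median of 2.75, and 7 rose with Wy14,643 with a median of 1.41. The difference of Pdk4 at 3 mg/kg, 4.97, lay above that list's median and that of Creb3l3, 0.70, below it. In PPARa-null livers none of the 10 passed at 3 mg/kg, where 0.3% of all probes did. The list median was 0.39 there, against -0.03 over all probes. Their differences there ran from -0.001 for Hadha to 3.61 ± 1.65 for Cyp4a14. Of the cell type markers, Col1a1, a fibrillar collagen and 1 of 6 stellate cell markers tested, rose by 3.10 ± 0.38 in PPARa-null livers at 3 mg/kg, the comparison in which Creb3l3 rose. The mean of the 6 was 12.37 there, against 12.17 in PPARa-null livers on water. In wild type at 3 mg/kg 1 of 7 Kupffer cell markers, Vsig4, fell by 0.67 ± 0.18, and the mean of the 7 was 11.94, against 12.40 on water. In the same comparison 1 of 5 hepatocyte markers, 2 of 7 liver endothelial markers and 1 of 6 stellate markers fell, and 1 endothelial marker, Lyve1, rose. None of the cholangiocyte, lymphocyte, adipocyte, pancreatic acinar or skeletal muscle markers (4, 4, 2, 4 and 2 tested) passed in either genotype at 3 mg/kg. With Wy14,643 in wild type 3 of the 7 Kupffer cell markers, 3 of the 7 endothelial markers and 2 of the 5 hepatocyte markers fell. The part of these cells in the members' differences was not tested.

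**Figure D3:**
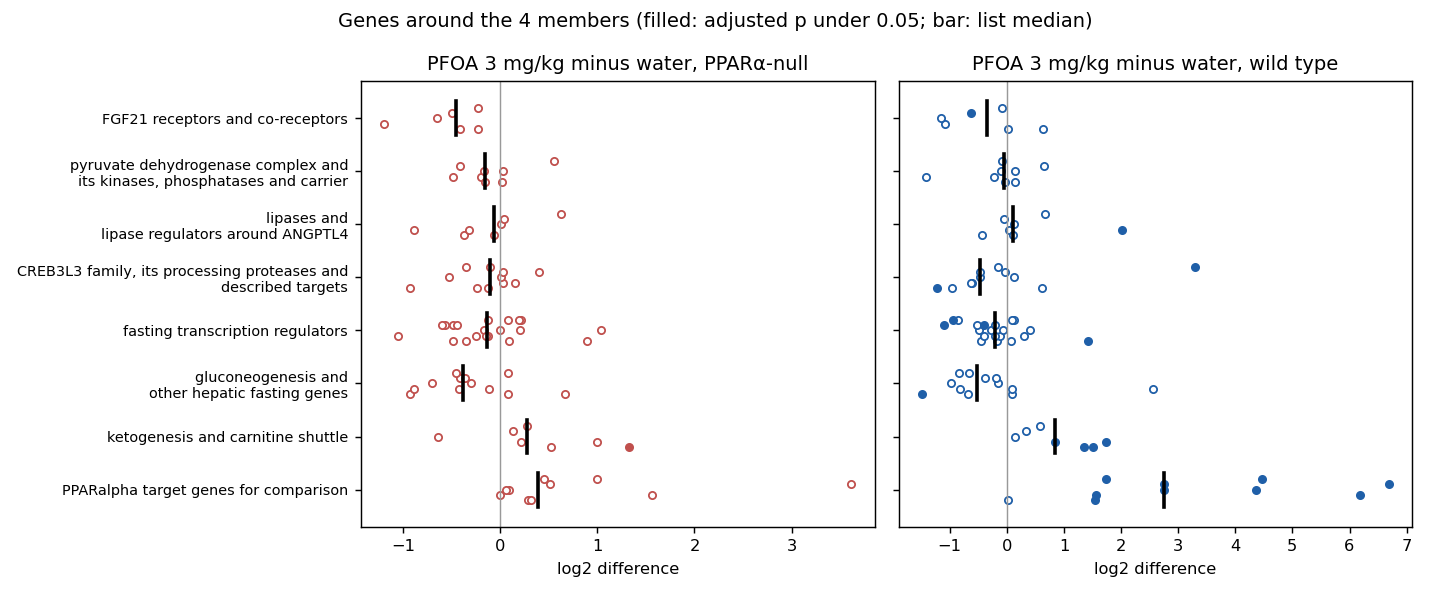
Log2 difference of 3 mg/kg PFOA minus water (x axis) for each tested gene of the 8 lists around the members (rows), in PPARa-null livers on the left and wild-type livers on the right; filled points passed at an adjusted p under 0.05 and black bars are list medians. The median of the PPARα targets was 2.75 in wild type, and 1 filled point, Acadl, stands in PPARa-null livers.

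The genes most like each member were taken by Pearson's r over the 39 arrays among 11402 genes, as a description. For Fgf21 they were Pdzrn3, Acadvl, Rtn4, Cox6b2 and Decr2, with r from 0.93 to 0.95 and, after group means were taken out, from 0.63 to 0.82. For Pdk4 they were Myo5b, Crat, Cidec, Hilpda and Acot1, with r from 0.80 to 0.84. For Angptl4 they were St3gal5, Lpin2, Klf11, Pxmp4 and Csrp3, with r from 0.71 to 0.85. For Creb3l3 they were Mlycd, Eci2, Lrp4, Acadl and Tlr5, with r from 0.84 to 0.89. These arrays share their groups and array sets, and r across all of them holds the treatment and genotype differences.

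The neighbours were picked over the same arrays, so their differences are a description. In PPARa-null livers at 3 mg/kg, Acadl was higher of the 5 nearest to Creb3l3. Of the 5 nearest to Angptl4, Csrp3 was higher there, by 1.21 (limma adjusted p = 0.00942). None of the 5 nearest to Fgf21 or to Pdk4 passed in PPARa-null livers at that dose. In wild type at 3 mg/kg all 5 nearest to Fgf21 passed, with differences from 0.85 to 3.19.

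**Figure D4:**
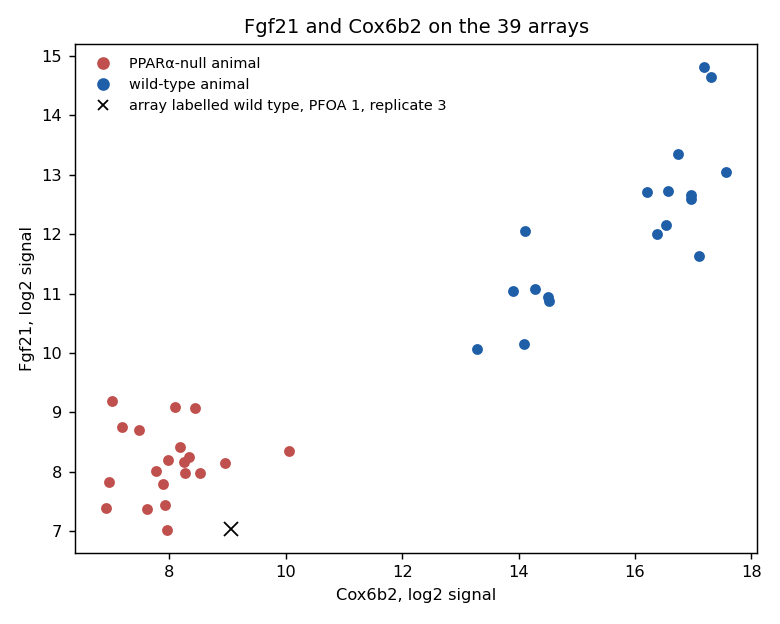
Log2 signal of Fgf21 (y axis) against that of Cox6b2, 1 of its 5 nearest genes (x axis), on the 39 arrays, with PPARa-null arrays in red and wild-type arrays in blue. The cross, at 7.04 and 9.06, is the array labelled wild type, 1 mg/kg PFOA, replicate 3, and it lies among the PPARa-null arrays.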

How the data were processed

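Digoxigenin-labelled liver RNA was read on Applied Biosystems arrays, per the labels' protocols. The log2 values were normalised by the authors before they were deposited: every array has the same quantiles, and no label names the software or the genome build. Base 2 was taken from the range of the values. Of 33012 probes, 14411 had 1 gene symbol, 247 several and 18354 none. Probes missing on any of the 39 arrays were left out, and the other 25295 entered a two-sided moderated test in limma (version 3.58.1, R 4.3.3) without covariates, using a mean for each of the 10 groups, and Benjamini-Hochberg adjustment. No depth applies to arrays, where the number of animals limits the precision. Pairs of members were tested with 100000 permutations within groups. The 4 members and up to 4 changed genes per list were named, with the 5 genes most like each member. The members and lists were chosen with earlier results of these data known. The fit was tested on simulated data. The labels do not say what a replicate number shares. Deviations of same-numbered arrays from their group means correlated above 0.1 in every pair in 2 of 12 comparisons, PFOA 3 minus 1 mg/kg in each genotype (r from 0.10 to 0.31), and these count as paired. Alternatives covered normalisation, filters, moderation, array sets, replicate block, silent-gene signal and each array left out.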

Additional observations from a re-analysis of the deposited data

Results flagged for a closer look

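Fgf21 on the array labelled wild type, 1 mg/kg PFOA, replicate 3 lay at 7.04, far below the other 3 arrays of its group at 12.01 to 12.73. The gap to its nearest neighbour was 0.874 of the group's range. It was the only one of 36 group and gene combinations in which a single array stood apart in this way, where chance would give about 1 in 20.

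The response of Pdk4 to 3 mg/kg PFOA differed between the genotypes. The PPARa-null response minus the wild-type response was -5.72 (limma adjusted p = 0.0353), with all 4 wild-type dosed animals above all 4 wild-type water animals.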

How the results depend on the processing

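Under the alternatives no member's difference that passed changed sign. Fitting only the groups compared kept every estimate but lost Creb3l3 at 3 mg/kg in PPARa-null (1.06, adjusted p = 0.153) and wild type (0.70, adjusted p = 0.201) and Pdk4 with Wy14,643 (3.69, adjusted p = 0.325), and Fgf21's genotype difference in response then passed (-3.34, adjusted p = 0.00611). Within the smaller array set Creb3l3 gave 1.15 in PPARa-null and 0.69 in wild type, Fgf21 2.04 in wild type and Pdk4's genotype difference -6.48, and none passed. Within the larger set Creb3l3 gave 0.72, Fgf21 3.74 and Pdk4 4.78 in wild type at 3 mg/kg, and Pdk4 3.30 with Wy14,643. None of these passed, and each set holds fewer arrays. PPARa-null on water had 1 array in the larger set, with which Creb3l3 gave 0.85 in PPARa-null and Pdk4's genotype difference was -5.14. With the silent-gene signal as a covariate that genotype difference was -5.23 (adjusted p = 0.14), and the cause was not tested. Some genotype differences that missed the threshold passed elsewhere: with methylcellulose Fgf21 and Creb3l3 when only brighter probes were tested (adjusted p = 0.0422 and 0.0273) and Creb3l3 under trend and robust moderation (0.0294), and with water Fgf21 when only those groups were fitted (0.0296).

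Leaving out 1 array at a time gave 1.98 to 3.10 for Angptl4 in PPARa-null at 3 mg/kg, 0.56 to 0.81 for Creb3l3 and 2.48 to 3.15 for Fgf21 in wild type at 3 mg/kg, and 2.05 to 4.51 for Pdk4 with Wy14,643. It gave -3.60 to -2.94 for Fgf21's and -6.26 to -5.19 for Pdk4's genotype difference at 3 mg/kg, and -4.84 to -2.38 for Pdk4's with Wy14,643, which passed without wild-type Wy14,643 replicate 1 (adjusted p = 0.0394).

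Of the within-group correlations, Fgf21 with Creb3l3 was 0.29 without the 2 farthest arrays, -0.38 and 0.65 in the smaller and larger array sets, and 0.31 to 0.47 without the array that goes against its label or, in an alternative chosen after seeing the data, without wild-type Wy14,643 replicate 3. With these arrays left out Fgf21 with Pdk4 was 0.50 and 0.13, and Pdk4 with Creb3l3 0.15 and -0.20. In the smaller set Fgf21 with Pdk4 was -0.69 and Fgf21 with Angptl4 -0.054. Pdk4 with Angptl4 was 0.069 and 0.53 in the smaller and larger sets, and Pdk4 with Creb3l3 -0.16 without the 2 farthest arrays.

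In the 2 comparisons that the replicate numbers pair, between the PFOA doses in each genotype, the replicate block changed no call of a member. It moved the changed probes to 4, against 7, in wild type. In the other 10 comparisons at least 1 pair correlated at 0.1 or less. Over all 39 arrays, 26 correlated best with their own number. With the block Creb3l3's PPARa-null minus wild-type difference with methylcellulose passed (-0.89, adjusted p = 0.0442), and no other call of a member changed. It moved the number of probes whose Wy14,643 response differed between genotypes to 588, against 313.

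The number of changed probes at 3 mg/kg in wild type was 1473, with 262 to 1881 over the alternatives and 825 to 1943 with 1 array left out. In PPARa-null it was 76, with 4 to 101 and 43 to 84. With Wy14,643 in wild type it was 1542, with 70 to 2153 and 797 to 2399. At 1 mg/kg in wild type it was 69, with 1 to 112 and 32 to 249, the highest without the array that goes against its label. Between genotypes it was 32 with water (1 to 51, and 1 to 75) and 47 with methylcellulose (0 to 117, and 6 to 108). For the genotype difference in response it was 105 at 3 mg/kg (0 to 174, and 42 to 178) and 313 with Wy14,643 (2 to 713, and 144 to 626). Each member has 1 probe, so averaging probes was not run. No detection call was used, so whether Fgf21 was above background on PPARa-null arrays was not tested. Its PPARa-null group means, 7.75 to 8.52, lay below the silent-gene means of the same groups, 8.77 to 8.96.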
